A study of Saccharomyces cerevisiae with 25 samples.

Results

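In a time course of phosphate starvation in budding yeast, the libraries taken at 225, 240 and 255 min were set against those taken at 180, 195 and 210 min. These are 6 of the 25 RNA-seq libraries of the series, grouped by time. The comparison itself was chosen with earlier results of these data known. All cells were BY4741, a haploid laboratory strain of Saccharomyces cerevisiae, and all carried both a YFP reporter behind the PHO84 promoter (pho84pr-YFP) and the PHO90 overexpression (pho90_OX), so no library lacks either. Which promoter drives PHO90 in this strain is not stated in the labels. The cells had grown with high phosphate and were then washed and moved to medium without it, with a sample every 15 min up to 360 min. Each time point has 1 library, and nothing in the labels names separate cultures. The 3 time points of a window therefore stand in for replicates, and a p-value measures only the spread between these libraries, made up of noise between libraries and of change with time within a window. Of 6648 genes used in the table, 5242 had a value in at least 1 of the 6 libraries, and the 4337 with a value in all 6 were tested.

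Budding yeast that runs out of phosphate first induces the PHO regulon, the transporters, phosphatases and polyphosphate enzymes that the transcription factor Pho4 turns on when the kinase complex Pho80-Pho85 is inhibited. As growth slows, genes for ribosomal proteins and for ribosome biogenesis (the factors that make, modify and assemble rRNA into subunits) are repressed, and genes with stress response elements, bound by Msn2 and Msn4, are induced. The low-affinity transporter Pho90 is normally lost from the plasma membrane in low phosphate. Ribosome biogenesis genes share the promoter elements PAC and RRPE, bound by the repressors Dot6 and Tod6 and by Stb3, all of which answer to the TOR and Sch9 growth signals.

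No gene passed the test between the windows, but the libraries at 240 and 255 min stood apart from the other 4 in the median level of ribosome biogenesis and of stress genes. Of 4337 genes, limma called 0 genes (0%) higher and 0 (0%) lower at 225 to 255 min than at 180 to 210 min (adjusted p under 0.05 after Benjamini-Hochberg adjustment over all genes tested). The smallest adjusted p was 0.203 on the deposited scale, log2 of reads per 1000000 listed reads (RPM). After each library was centred on its median over the 3254 genes listed in all 25 libraries, limma again called 0 genes in each direction (0%), and the smallest adjusted p was 0.242. With an unadjusted p under 0.05, 507 genes were higher and 103 lower on the deposited scale, and 201 higher and 313 lower after centring. Centring takes 0.14 off every difference, and the median difference of all genes was 0.09 before it and -0.05 after it. In 583 genes (13.4%) all 3 later values lay above all 3 earlier ones, and in 155 (3.57%) all lay below. After centring the counts were 248 (5.72%) above and 473 (10.9%) below.

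The call depended on the library at 225 min. Leaving out each of the 6 libraries in turn, limma called no gene on the deposited scale when the library at 180, 195, 210, 240 or 255 min was left out. Without the library at 225 min it called 296 genes (6.82%) higher and 52 (1.2%) lower, with differences of at least 1 on the log2 scale in 87 and 11 of them. After centring, the fit without 225 min called 174 genes higher (4.01%) and 142 lower (3.27%), and the fit without 210 min called 1 gene lower (0.0231%), ASC1. Those counts come from 1 of 6 such fits, with 2 later libraries against 3 earlier ones, and they are counts for the 240 and 255 min libraries rather than for the window. Below, a gene called higher or lower "without 225 min" refers to that fit on the deposited scale.

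**Figure D1:**
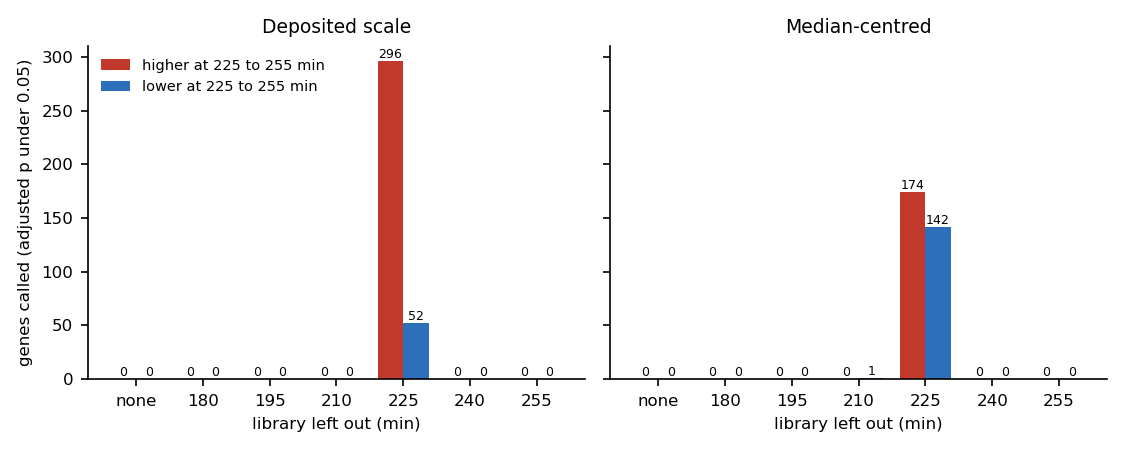
Number of genes called by limma (y axis, adjusted p under 0.05) with all 6 libraries (none) and with each library left out in turn (x axis, min), on the deposited scale and after centring on library medians. Counts of 296 higher and 52 lower (deposited) and 174 higher and 142 lower (centred) appear without the library at 225 min, and 1 lower gene after centring without the library at 210 min.

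The later window was, on average, no nearer to the early state than the earlier window. A position was computed for each library on an axis that uses none of the 6 libraries, with 0 at the mean profile of 15 to 120 min and 1 at the mean profile of 270 to 360 min. The position averaged 0.828 ± 0.0955 at 225 to 255 min and 0.782 ± 0.126 at 180 to 210 min (SD, n = 3 each; exact two-sided permutation p = 0.6, where the smallest p that 3 against 3 allows is 0.1). Library by library, it was 0.937, 0.782 and 0.763 at 225, 240 and 255 min, against 0.662, 0.771 and 0.913 at 180, 195 and 210 min. The 225 min library was thus the farthest along of the 6, and those at 240 and 255 min lay close to the one at 195 min. At 270, 285 and 300 min the position was 0.905, 1.06 and 1.13. "Partial relaxation" therefore describes the 240 and 255 min libraries against their neighbours in time and not the mean of the later window.

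**Figure D2:**
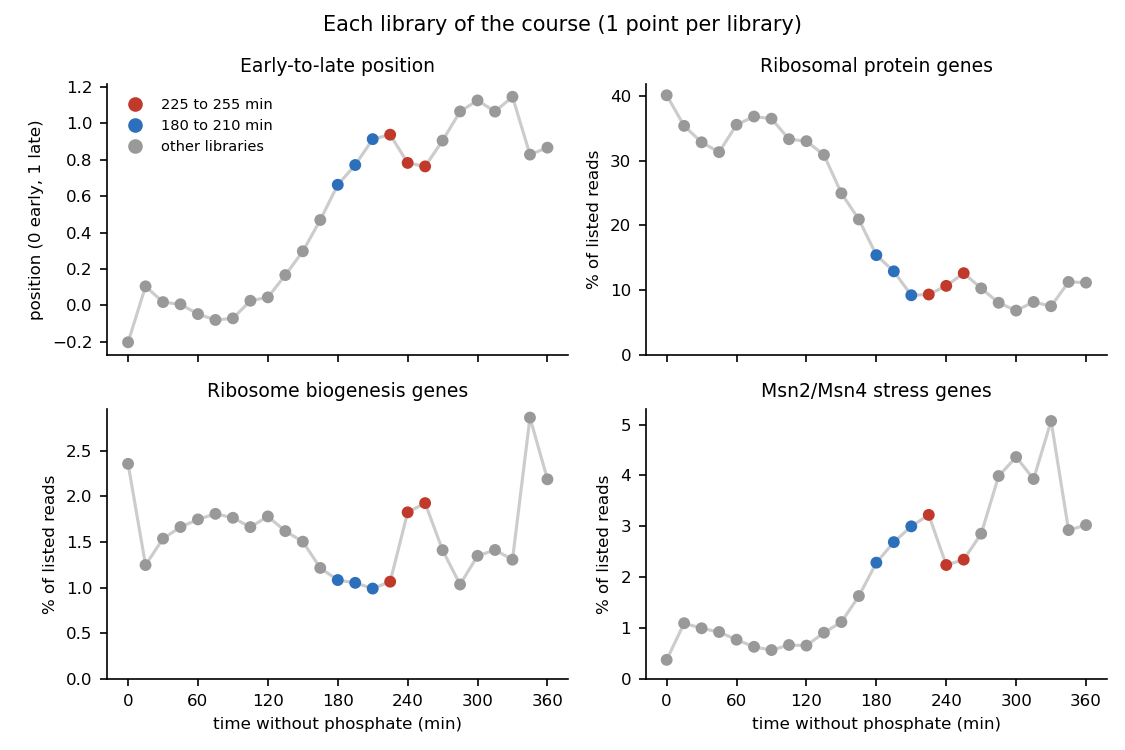
Position between the early (0) and late (1) mean profiles, and the percent of listed reads in 3 gene lists (y axes), in each of the 25 libraries by time without phosphate (x axis, min). The 225 to 255 min libraries are red and the 180 to 210 min libraries blue; ribosome biogenesis genes took 1.83% and 1.93% of reads at 240 and 255 min, above the 4 other coloured points.

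Ribosome biogenesis genes had the largest median difference of the 33 lists. Of the 104 members of the list that were tested, of 111 in all, 102 had a positive difference and 2 a negative one, with a median of 0.65 on the deposited scale and 0.51 after centring, where 101 were positive. In 26 of the 104 all later values lay above the earlier ones and in 0 all lay below, against 13.4% and 3.57% of all genes; after centring, 16 lay above and 1 below, against 5.72% and 10.9%. Without 225 min 87 were called higher, against 6.82% of all genes. Together they took 1.07%, 1.83% and 1.93% of listed reads at 225, 240 and 255 min, against 1.08%, 1.05% and 0.991% at 180, 195 and 210 min. The means were 1.61% ± 0.470 in the later and 1.04% ± 0.0475 in the earlier window (SD, n = 3 each; exact two-sided permutation p = 0.2). In these bulk libraries, more or less RNA per cell and more or fewer cells that express a gene cannot be told apart. The 225 min library lay among the earlier ones and the next 2 lay well above them. In time order the median member stood 0.15, 0.02 and -0.41 from its library's median at 135, 150 and 165 min on the log2 scale, -0.60, -0.67 and -0.68 at 180 to 210 min, -0.64, 0.05 and 0.11 at 225, 240 and 255 min, and -0.40 at 270 min. The 240 and 255 min values thus lay between those of the libraries at 135 and 150 min. Higher values came at 345 and 360 min, where the median member stood at 0.61 and 0.36 and the list took 2.86% and 2.19% of listed reads.

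**Figure D3:**
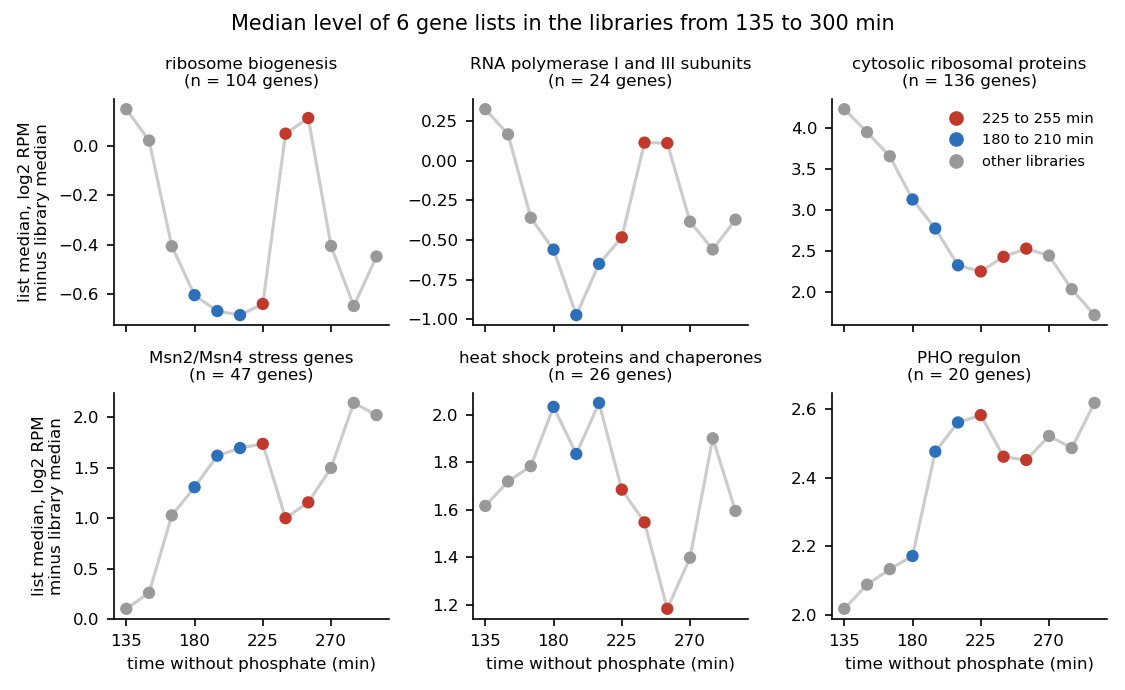
Median log2 RPM of 6 gene lists relative to the library median (y axes) in the libraries from 135 to 300 min (x axis), with 225 to 255 min in red and 180 to 210 min in blue. Ribosome biogenesis and polymerase genes stand high at 240 and 255 min, where stress genes stand at 1.0 and 1.16, while the PHO regulon differs little among the last 5 coloured points.

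The promoters of RPF1 and PWP1, both on the ribosome biogenesis list, of UTP23, which is on none of the lists, and of 2 stress genes are shown because they hold the motifs counted after them. The bases are those from 300 to 51 before the annotated start of the gene in build R64 of the RefSeq genome, the build of the deposited data, read 5′ to 3′ on the gene's strand. Capitals mark PAC (GATGAG), RRPE (AAAAATTT) or the stress response element STRE (AGGGG) on either strand; no occurrence of the Pho4 motif CACGTG was found in these 5. UTP23 (a processome protein) lies at chrXV:333292-333541, plus strand, RPF1 (large-subunit assembly) at chrVIII:281195-281444, plus strand and PWP1 (large-subunit assembly) at chrXII:543668-543917, plus strand.
UTP23: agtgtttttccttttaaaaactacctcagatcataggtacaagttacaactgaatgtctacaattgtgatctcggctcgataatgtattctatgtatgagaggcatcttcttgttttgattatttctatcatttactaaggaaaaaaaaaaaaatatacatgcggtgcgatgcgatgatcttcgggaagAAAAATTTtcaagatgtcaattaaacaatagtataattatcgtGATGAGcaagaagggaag
RPF1: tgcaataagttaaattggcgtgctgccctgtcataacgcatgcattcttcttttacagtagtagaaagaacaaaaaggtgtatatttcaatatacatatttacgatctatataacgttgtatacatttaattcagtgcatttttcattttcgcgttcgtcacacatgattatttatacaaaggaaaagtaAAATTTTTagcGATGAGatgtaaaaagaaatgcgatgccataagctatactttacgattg
PWP1: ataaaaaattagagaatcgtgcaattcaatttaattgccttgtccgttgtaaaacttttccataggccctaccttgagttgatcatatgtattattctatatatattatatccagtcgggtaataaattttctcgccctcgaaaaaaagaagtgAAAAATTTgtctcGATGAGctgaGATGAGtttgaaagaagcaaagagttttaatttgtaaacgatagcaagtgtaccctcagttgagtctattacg
PGM2 (phosphoglucomutase) lies at chrXIII:477657-477906, minus strand and TSL1 (a subunit of the trehalose synthase complex) at chrXIII:70324-70573, plus strand.
PGM2: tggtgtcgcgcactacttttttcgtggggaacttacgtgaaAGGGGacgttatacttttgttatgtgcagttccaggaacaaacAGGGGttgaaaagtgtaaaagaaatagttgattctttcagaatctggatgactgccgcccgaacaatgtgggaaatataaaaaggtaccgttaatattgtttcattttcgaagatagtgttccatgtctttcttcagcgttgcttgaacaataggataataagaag
TSL1: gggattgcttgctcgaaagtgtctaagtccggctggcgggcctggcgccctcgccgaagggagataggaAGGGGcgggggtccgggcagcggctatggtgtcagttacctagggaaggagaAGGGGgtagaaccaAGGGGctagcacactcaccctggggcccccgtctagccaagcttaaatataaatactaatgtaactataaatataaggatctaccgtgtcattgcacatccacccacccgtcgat

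Both PAC and RRPE were present in 76.9% of the 104 ribosome biogenesis promoters and in 62.5% of the 24 polymerase I and III promoters, against 5.30% of all 6001 promoters in R64. PAC alone or with RRPE was in 91.3% of ribosome biogenesis promoters and 17.8% of all promoters, and RRPE in 83.7% and 14.1%. Over the 4260 tested genes with a promoter window, the 279 with both motifs had a median difference of 0.50, and the 3062 with neither had 0.06. With the members of the ribosome biogenesis and polymerase lists left out, 184 genes had both motifs and their median difference was 0.34 (0.20 after centring). Ribosome factors that are on neither list, such as UTP23, remain among the 184. Of the 570 promoters of genes whose later values all lay above the earlier ones, 11.6% held both motifs, and of the 150 whose later values all lay below, 0%, against 6.55% of all 4260. Among genes called without 225 min, both motifs were in 50% of 294 higher genes and in 0% of 50 lower ones. STRE was in 8.16% of those higher genes and 64% of the lower ones, against 19.2% of all promoters. With all 6 libraries, STRE was in 24% of the 150 promoters of genes whose later values all lay below the earlier ones. It was in 13.5% of the 570 whose later values all lay above, against 19.98% of all 4260. The share of 64% therefore belongs to the fit without 225 min. The 851 tested genes with STRE had a median difference of 0.01, and the 3409 without it had 0.11. A match says only that the letters are in the window; PAC followed by GGG also holds STRE on the same strand, and binding was not measured.

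Within ribosome biogenesis, every role had a positive median. Factors of large-subunit assembly and export had a median difference of 0.68, and all 39 were positive. The 29 small-subunit processome factors tested had a median of 0.62, with UTP22 (-0.09) and UTP6 (-0.08) the 2 negative members. Helicases of ribosome assembly had a median of 0.65 over 12 genes, and the 6 core proteins of the snoRNA particles, which guide rRNA modification, had 0.53. UTP23, another processome protein that is on none of the lists and in none of these counts, had 79.4, 169 and 237 RPM at 225, 240 and 255 min, against 71.1, 73.6 and 63.4 RPM at 180, 195 and 210 min. Its difference was 1.09 ± 0.29 (SE) on the log2 scale (limma adjusted p = 0.21). The 3 later values all lay above the earlier ones, though the 225 min value by little. RRP12, a factor of subunit export, had 68.8, 131 and 130.5 RPM in the later window, against 44.9, 55.7 and 57.9 RPM in the earlier one, with a difference of 1.01 ± 0.24 (SE; adjusted p = 0.21). RPF1 had 84.2, 174 and 183 RPM in the later window, against 72.1, 63.6 and 77.7 RPM in the earlier one, with a difference of 0.97. Without 225 min the differences of UTP23, RRP12 and RPF1 were 1.53, 1.31 and 1.33, with limma adjusted p from 7.42e-05 to 0.000218. These genes were named for the size of their difference in the same libraries, and leaving out any other library called no gene on the deposited scale. The small p-values are therefore not independent support for a difference between the windows. The helicases ECM16 and ROK1 had differences of 1.13 and 1.06, above that of RRP12, but their windows overlapped. The ECM16 values were 32.9, 78.5 and 75.0 RPM in the later window, against 16.7, 38.8 and 28.5 RPM in the earlier one. Its 16.7 RPM at 180 min lies just above the lowest value listed in that library, 15.7 RPM, so the size of its difference is uncertain.

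RNA polymerases I and III, which make rRNA and tRNA, had positive differences in every subunit gene tested. All 24 subunit genes were tested, with a median difference of 0.52 (0.38 after centring, again positive in 24). In 9 of the 24 all later values lay above the earlier ones (8 after centring), against 13.4% of all genes (5.72% after centring), and 15 were called higher without 225 min, against 6.82% of all genes. They took 0.272%, 0.405% and 0.404% of listed reads at 225, 240 and 255 min, against 0.251%, 0.256% and 0.241% at 180, 195 and 210 min (exact two-sided permutation p = 0.1, the smallest allowed). The 225 min share lay above all 3 earlier ones, though nearer to them than to the other later ones. Polymerase I and polymerase III subunits had medians of 0.62 each over 7 and 10 genes, and the 7 subunits shared between enzymes had 0.36. RPC31, a polymerase III subunit, had 82.3, 128 and 97.9 RPM at 225, 240 and 255 min, against 62.7, 47.7 and 61.0 RPM at 180, 195 and 210 min, with a difference of 0.83 ± 0.20 (SE; adjusted p = 0.21). All 3 later values lay above the earlier ones. Among genes outside the list, UAF30, a part of the upstream activating factor of polymerase I, had 55.2, 60.7 and 73.4 RPM in the later window, against 26.1, 36.8 and 35.7 RPM in the earlier one.

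**Figure D4:**
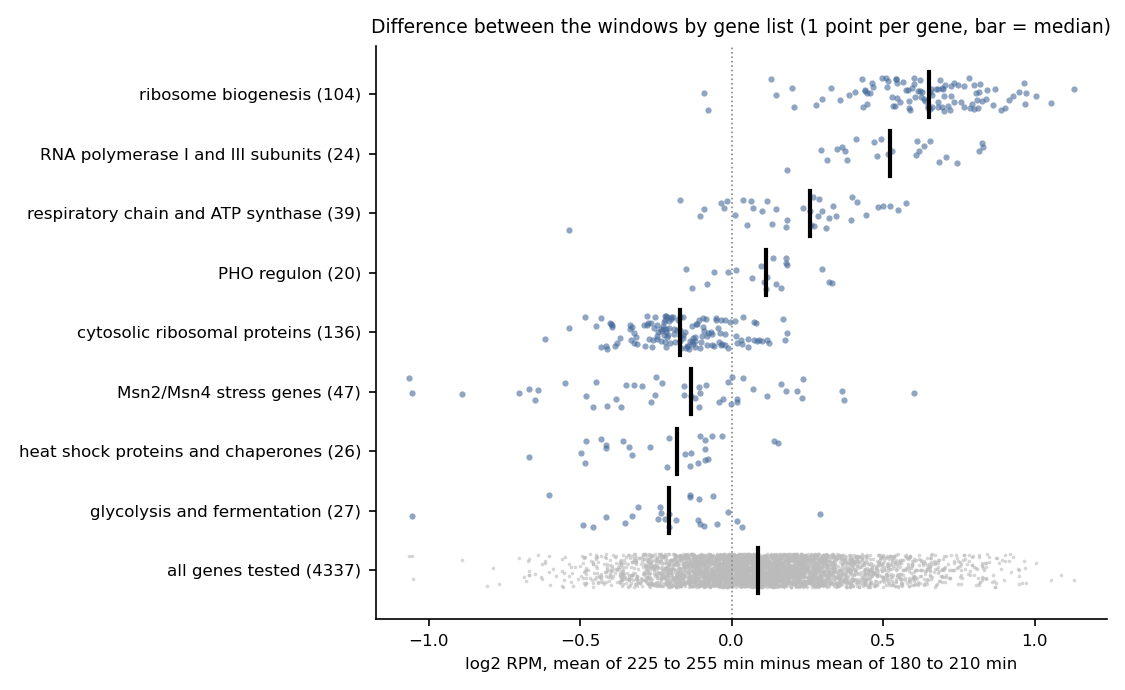
Difference in log2 RPM between the mean of 225 to 255 min and the mean of 180 to 210 min (x axis) for the genes of 8 lists and for all 4337 genes tested (rows; 1 point per gene, black bars are medians). Medians are 0.65 for ribosome biogenesis, 0.52 for polymerase I and III subunits and -0.17 for ribosomal proteins, against 0.09 over all genes.

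Cytosolic ribosomal protein genes showed a different pattern from the biogenesis factors. Of the 136 tested, 117 had a negative and 19 a positive difference, with a median of -0.17 (-0.31 after centring). The large-subunit and small-subunit proteins had similar medians, -0.17 and -0.18. Together they took 9.28%, 10.6% and 12.6% of listed reads at 225, 240 and 255 min, against 15.4%, 12.9% and 9.17% at 180, 195 and 210 min. The means, 10.8% ± 1.66 and 12.5% ± 3.12 (SD, n = 3 each), did not differ beyond that spread (exact two-sided permutation p = 0.5). Within the earlier window the share was lower at each later time, within the later window it was higher at each later time, and the windows overlapped. Leaving out the library at 180 min turned the list's median difference to 0.01. RPL8A, with the most negative difference of the list (-0.62), had 116, 159 and 146 RPM in the later window. Its earlier values were 280, 211 and 164 RPM, all above the later ones. All later values lay below the earlier ones in 2 of the 136, against 3.57% of all genes (7 after centring, against 10.9%). Reads of RPL8A and its near-identical copy RPL8B may have been split by the authors' counting, so its level is uncertain. ASC1, a protein of the small subunit, had 575, 534 and 542 RPM in the later window, against 1184, 923 and 631 RPM in the earlier one (difference -0.68 ± 0.19, SE; adjusted p = 0.215). Its intron holds the snoRNA gene SNR24. Its values fell within the earlier window and were lower at 225 min, whereas the median of the biogenesis genes changed between 225 and 240 min.

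Stress genes had their lowest median levels of the 6 libraries at 240 and 255 min, and their highest at 225 min. Relative to the library median, the median member stood at 1.74, 1.0 and 1.16 at 225, 240 and 255 min, against 1.31, 1.62 and 1.70 at 180, 195 and 210 min on the log2 scale. Of the 47 Msn2/Msn4 stress genes tested, 33 had a negative and 14 a positive difference, with a median of -0.13 (-0.27 after centring). In 1 of the 47 all later values lay below the earlier ones, against 3.57% of all genes (2 after centring, against 10.9%). Without 225 min 15 were called lower, against 1.2% of all genes, and 0 higher. Their share of listed reads was 3.23%, 2.24% and 2.35% at 225, 240 and 255 min, against 2.29%, 2.69% and 3.0% at 180, 195 and 210 min, with means of 2.60% ± 0.541 and 2.66% ± 0.358 that did not differ beyond this spread (SD, n = 3 each; exact two-sided permutation p = 0.9). Of the 55 names on the list, 8 had no value in all 6 libraries, and 1 of those is the systematic name of RTC3. HXK1, a hexokinase, had 1149, 568 and 437 RPM at 225, 240 and 255 min, against 1324, 1363 and 1418 RPM at 180, 195 and 210 min. The difference was -1.06 ± 0.26 (SE; adjusted p = 0.21), and all 3 later values lay below the earlier ones. An entry named YFR052C-A, with no match in the R64 annotation used here, had nearly the same values as HXK1 (1140, 570.1 and 437 RPM against 1318, 1358 and 1414 RPM), so the reads behind the pair may not be separate. RTC3 had 329, 114 and 108 RPM in the later window, against 330.3, 361 and 309.9 RPM in the earlier one, and its windows overlapped through the 225 min library.

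The other carbohydrate, chaperone and metabolic lists split by direction. Of 26 heat shock proteins and chaperones, 24 had negative differences, with a median of -0.18 (-0.32 after centring). In 4 of them all later values lay below the earlier ones, against 3.57% of all genes (13 after centring, against 10.9%). SSA2, a cytosolic Hsp70, had 972, 1028 and 690 RPM at 225, 240 and 255 min, against 1557, 1327 and 1342 RPM at 180, 195 and 210 min (difference -0.67 ± 0.16, SE; adjusted p = 0.21). Chaperones took 1.61% ± 0.193 of reads in the later window and 1.97% ± 0.111 in the earlier one (SD, n = 3 each; exact permutation p = 0.1, the smallest allowed). Of 15 trehalose and glycogen genes 12 were negative (median -0.16), and TPS1, the trehalose-6-phosphate synthase, had 374, 235 and 166 RPM in the later window, against 345, 427 and 384 RPM in the earlier one. In TPS1, as in PGM2, the 225 min value lay inside the range of the earlier window and the 240 and 255 min values below it. PGM2 had 482, 211 and 239.8 RPM in the later window, against 443, 499 and 445 RPM in the earlier one. Of 27 glycolysis and fermentation genes 24 were negative (median -0.21), and of 21 methionine and sulfur genes 15 were (median -0.14). MET6, the methionine synthase, had 944, 757 and 558 RPM in the later window, against 1180, 1182 and 1160 RPM in the earlier one. Differences were positive in 32 of 39 respiratory chain and ATP synthase genes (median 0.26), on a scale where 2802 of all 4337 were. They were also positive in all 10 genes of the histone list (median 0.26), which includes the linker histone HHO1 and the variant HTZ1. After centring they were positive in 24 of 39 (median 0.12) and in 8 of 10 (median 0.12), against 1808 of 4337. The 2 negative histone genes were HHO1 (-0.09) and HTZ1 (-0.04). OLE1, the fatty acid desaturase, had 289, 364 and 424 RPM in the later window, against 208, 247 and 212 RPM in the earlier one.

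**Figure D5:**
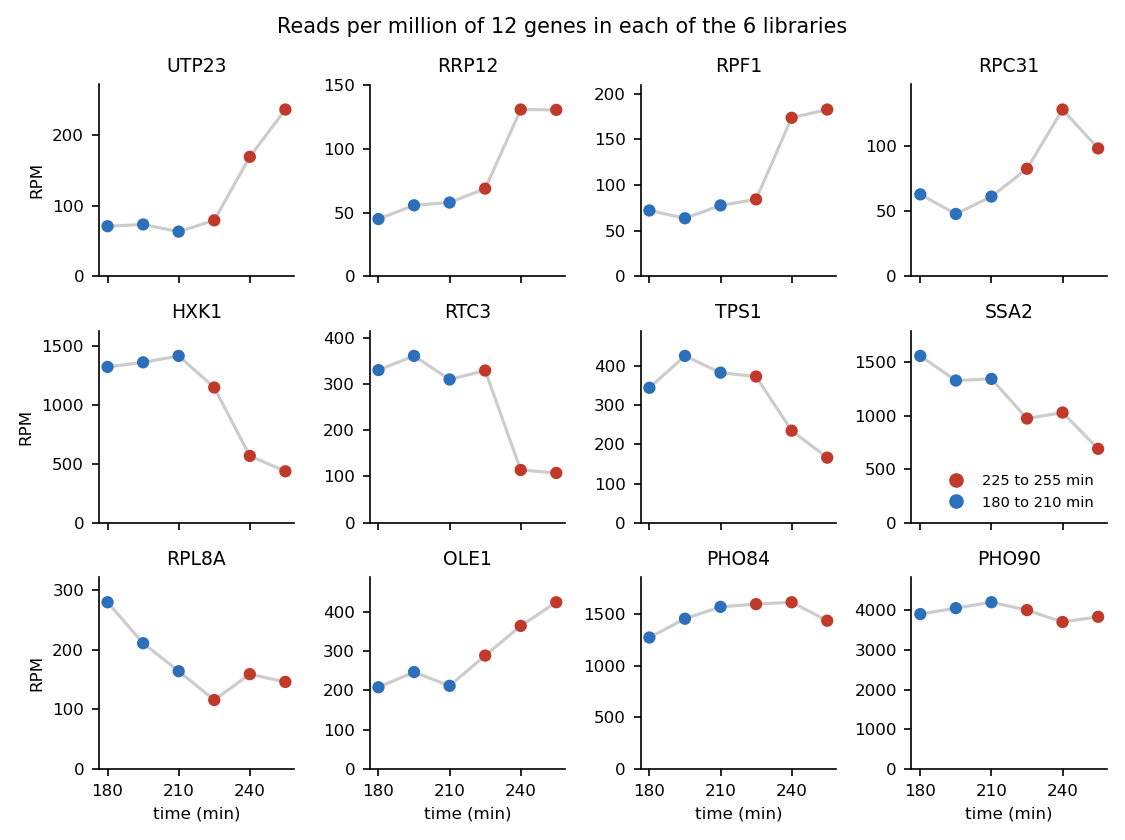
RPM of 12 genes (y axes, from 0) in each of the 6 libraries by time (x axis, min), red for 225 to 255 min and blue for 180 to 210 min. UTP23, RRP12 and RPF1 are at 84.2 RPM or below up to 225 min and stand higher at 240 and 255 min, HXK1, RTC3 and TPS1 are lower at 240 and 255 min, and PHO84 and PHO90 differ little.

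The phosphate genes differed little between the windows. Of the 22 PHO regulon members, 20 were tested, 15 with positive and 5 with negative differences, with a median of 0.12 (-0.02 after centring), and none was called also without 225 min. PHO84, the high-affinity transporter whose promoter drives the reporter, had 1596, 1614 and 1435 RPM at 225, 240 and 255 min, against 1273, 1455 and 1569 RPM at 180, 195 and 210 min (difference 0.12 ± 0.14, SE; adjusted p = 0.763). An antisense RNA gene covers its whole length in R64, and without strand information reads of the pair cannot be told apart. PHO8, the vacuolar alkaline phosphatase, VTC1, a polyphosphate polymerase subunit, and GIT1, a glycerophosphoinositol transporter, were the 3 of 20 members whose windows did not overlap on the deposited scale, all higher, a share near the 13.4% of all genes. After centring the windows of these 3 overlapped. The acid phosphatase genes PHO11 and PHO12 were then the 2 of 20 members whose later values all lay below the earlier ones. That share is near the 10.9% of all genes, and PHO11 and PHO12 are close copies whose reads may have been split between them. PHO8 had 308, 278 and 303 RPM in the later window, against 201, 249 and 262 RPM in the earlier one (difference 0.33 ± 0.13, SE; adjusted p = 0.305). The overexpressed PHO90 had 3999, 3700.0 and 3832 RPM in the later window, against 3900, 4049 and 4197 RPM in the earlier one (difference -0.08 ± 0.13, SE; adjusted p = 0.842). Of the 9 phosphate signalling and low-affinity transport genes tested, including PHO90, PHO4 and PHO80, none had windows that did not overlap on the deposited scale. After centring, all later values lay below the earlier ones in 1 of the 9, PHO90. That share is near the 10.9% of all genes.

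The steps on either side give the size of change around this one. At 180 to 210 min against 135 to 165 min, limma called 436 of 4392 genes higher (9.93%) and 266 lower (6.06%) on the deposited scale. After centring it called 229 higher (5.21%) and 342 lower (7.79%), so the balance of directions turned. At 270 to 300 min against 225 to 255 min it called 0% of 4276 genes in each direction on both scales (with an unadjusted p under 0.05, 246 were higher and 187 lower on the deposited scale, and 260 higher and 173 lower after centring). Both steps share 3 libraries with the comparison described here, so the 3 results are not independent. The SD of the differences over genes was 0.41 for the preceding step, 0.27 for this one and 0.26 for the following one.

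Depth and coverage bear on the same libraries. Listed reads were 1032717, 955943 and 613054 at 225, 240 and 255 min, against 956710, 1005706 and 1261563 at 180, 195 and 210 min, and the values of genes under about 15 reads are missing from a library. The library at 240 min had nearly as many reads as that at 180 min, and the one at 255 min the fewest of the 6. Of genes listed in all 3 libraries of a window and none of the other, 1 was so in the later and 15 in the earlier window. Over genes, the centred difference had a Spearman correlation of -0.26 with the level in the earlier window and -0.09 with gene length, as a description without a test. The earlier values enter both the difference and that level, so noise in them pulls the first correlation toward negative values.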

How the data were processed

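Total RNA of 25 libraries was measured by RNA-seq. Per the labels' protocols, RNA was extracted with a 96-well column kit and cDNA was sequenced on an Illumina instrument. Reads were aligned with Bowtie to R64, per the submitters' processing notes; how reads were counted, with which annotation and whether by strand is not stated in the labels. The deposited values are log2 RPM: 2 to the power of the value sums to 1000000 in each library. The lowest value of each library was taken as 15 reads, which gives the read totals printed. The design text speaks of normalization to the first time point, which these values do not show. Rows with no name (51, none with a value) and 2 rows that share 1 name were left out.

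Differences are the mean of 225 to 255 min minus the mean of 180 to 210 min. They were tested with limma 3.58.1 in R 4.3.3 (eBayes with trend and robust settings, Benjamini-Hochberg adjustment over 4337 genes, adjusted p under 0.05, no size minimum). In all 31 fits were run, alternatives and neighbouring steps included, and the fit was checked on simulated data. Genes were named by rule: PHO90, phosphate genes, the 12 largest differences in each direction (6 after centring) among genes called or, failing that, with windows that do not overlap, and the 3 largest per list. ASC1 was also named for its call without 210 min. The gene lists, roles and comparison were chosen with earlier results of these data known; the split of lists by role was made after values were seen. Gene names were matched to RefSeq R64 for 4263 of 4337 genes. Shares and positions were compared by exact permutation over libraries.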

Additional observations from a re-analysis of the deposited data

How the results depend on the processing

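Median-centring, scaling to reads outside ribosomal protein genes, a size minimum of 1, a mean of at least 6, values in 2 of 3 libraries, genes listed in all 25 libraries, log2(RPM + 10), a spread shared by all windows and eBayes without trend or robust settings each left the number of called genes at 0 in each direction, where run. Leaving out 1 library gave 0 to 296 higher and 0 to 52 lower genes on the deposited scale, and 0 to 174 higher and 0 to 142 lower genes after centring. The counts above 0 came from the fit without 225 min, except 1 lower gene after centring without 210 min. After centring, genes whose windows do not overlap numbered 248 higher and 473 lower, against 583 and 155 on the deposited scale.

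The median difference of ribosome biogenesis genes ranged from 0.47 to 0.95 over the libraries left out, that of stress genes from -0.37 to -0.03, that of the PHO regulon from 0.08 to 0.18 and that of ribosomal proteins from -0.39 to 0.01. The difference in position ranged from -0.0142 to 0.111 over the libraries left out and was -0.0168 on an axis without ribosomal protein genes. The axis without genes called between the windows is the same axis, as no gene was called. The difference in ribosomal protein share ranged from -3.29 to -0.188 percentage points. Of 136 named genes tested, 47 passed the test in the fit without 225 min, against 6.82% of all genes higher and 1.2% lower. All 47 had the same direction as with 6 libraries. Many named genes were picked by the size of their difference in these same libraries, so neither the count nor the direction is independent evidence. Under centring, 20 of the 136 moved by more than their spread. No paired analysis was possible because each time point has 1 library and the labels give no replicate numbers. Depth limits the lowest genes: a gene under 15 reads in any of the 6 libraries was not tested.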
